A study of Bos taurus with 8 samples.

Results

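The transcripts described here are 10 genes that mark Kupffer cells, the resident macrophages of the liver, in the livers of fetal calves from dams on a low (LN) or a high (HN) plane of nutrition. Members were chosen by gene name, as the probes whose RefSeq accession belongs to CD163, CSF1R, CD68, MARCO, MSR1, MRC1, VSIG4, CD5L, CD14 or AIF1. Of these 10 genes, 8 had matched probes, 14 probes in all of the 43637 on the array, and all 14 were well above background on all 8 arrays. For MARCO and MRC1, 0 probes were matched, so neither was analysed here.

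Liver RNA from 8 fetuses of Japanese Black cows, taken 8.5 months post-conception, was hybridised to 1-colour Agilent bovine arrays labelled with Cy3. The dams received 60% (LN; fetuses L5, L6, L8 and L9) or 120% (HN; fetuses L1, L2, L3 and L10) of their nutritional requirement through gestation, and no group was fed at the full requirement. By the methods, all fetuses came from male-sorted semen of 1 sire, and the lightest LN and heaviest HN fetuses were taken, so that nutrition and fetal size differ together. The labels give 1 fetus per array, although the series text speaks of RNA pooled by group, and each array was taken here as 1 fetus. The LN arrays shared 1 slide and 1 scan and the HN arrays shared another, so that group cannot be told apart from slide or scan.

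Of 43803 spots per array, 32635 to 34369 were well above background and 0 were saturated. Values are log2 of the background-subtracted spot intensity after quantile normalization, and they compare a probe between fetuses, not 1 probe with another. Hepatocyte markers, 16 of 16 matched genes detected, had a mean log2 signal of 16.78 to 16.99 in every fetus, as the tissue label states. Precision is limited by the small number of arrays.

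Kupffer cells line the liver sinusoids, where they take up bacteria, aged red cells and cell debris from portal blood. They are seeded before birth by fetal macrophages and monocytes, are maintained by growth factor signals through the CSF1 receptor, and share the fetal liver with blood-forming cells. In whole liver RNA, fewer macrophages and less transcript per macrophage cannot be told apart.

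Levels of the 8 macrophage genes did not separate the LN from the HN livers. With 1 probe per gene, the one with the highest mean signal, 6 genes had a lower mean in LN and 2 a higher mean, against 48.4% of 10860 genes lower in LN. The median LN minus HN difference of the 8 genes was -0.052 on the log2 scale, beside 0.0075 for all genes. By limma, 0 of the 8 genes passed an adjusted p of 0.05, where 0 of all 33439 detected probes passed (0%), and the lowest adjusted p among the 8 was 0.874. At an unadjusted limma p of 0.05, 0 of 8 genes and 0 of 14 probes passed, while 657 of all genes did (6.05%). The groups overlapped for 8 of 8 genes, whereas 4.14% of all genes had groups that did not overlap. A HN signal more than 25% above that of LN was seen for 0 of 8 genes and for 8.63% of all genes. The intervals in the following paragraphs give the sizes of difference that these 8 arrays could not separate from 0.

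**Figure D1:**
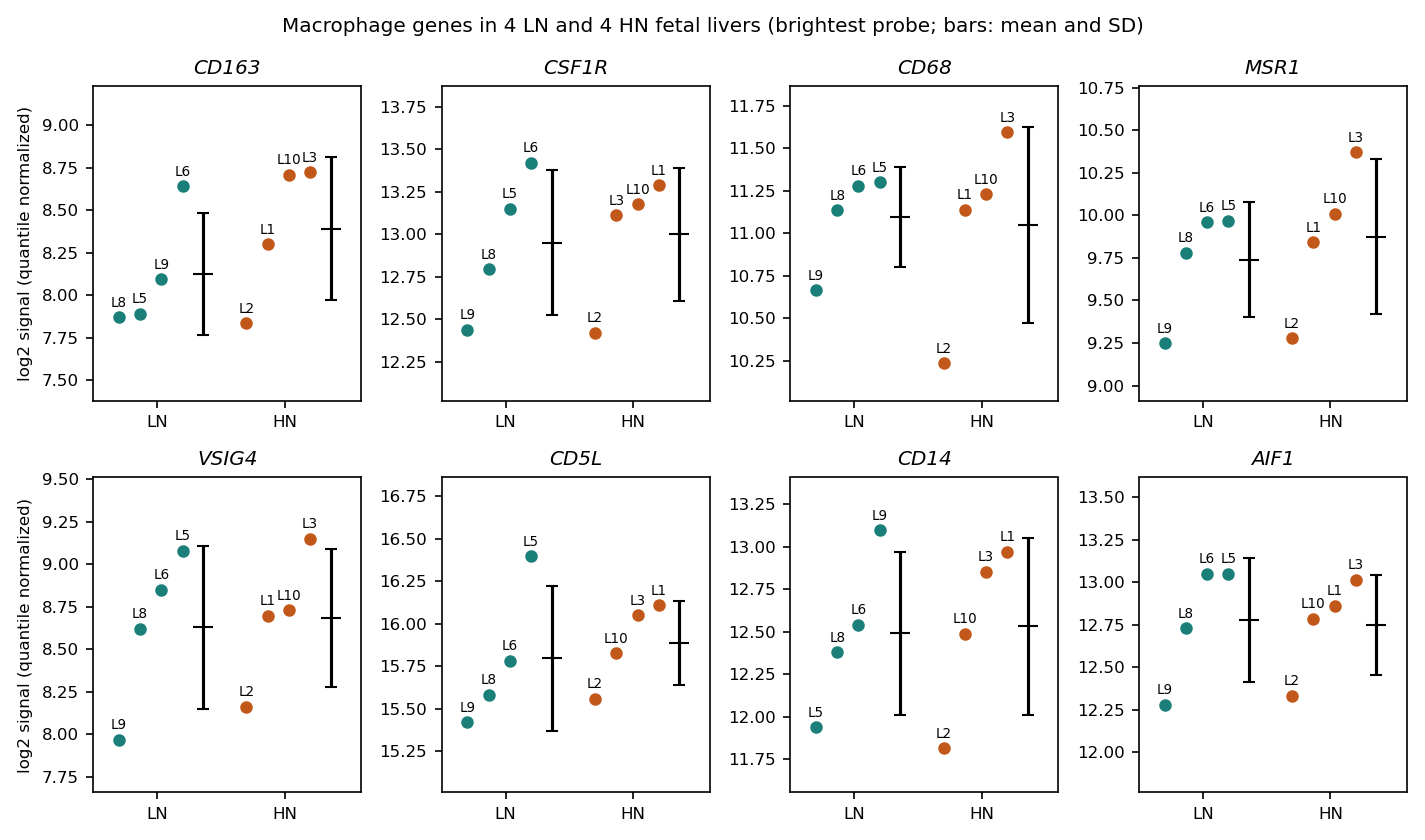
Log2 signal (vertical axis, quantile normalized) of the brightest probe of each of 8 macrophage genes in the 4 LN and 4 HN fetuses, 1 point per fetus, with the group mean and SD as a bar beside the points and the same span of the axis in every panel. LN and HN points overlap in all 8 panels, and HN fetus L2 is among the 2 lowest fetuses in each.

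The first role is that of the scavenger receptors, which bind and clear altered proteins, haemoglobin complexes and microbial products. CD163 (NM_001163413), the receptor for haptoglobin-haemoglobin complexes, had a log2 signal of 7.89, 8.64, 7.87 and 8.09 in LN fetuses L5, L6, L8 and L9. In HN fetuses L1, L2, L3 and L10 it was 8.30, 7.84, 8.72 and 8.71. Most LN fetuses lay low and most HN fetuses high, but LN fetus L6 lay with the high HN livers and HN fetus L2 was the lowest of all, so the groups overlapped. The group means were 8.12 ± 0.36 and 8.39 ± 0.42 (SD, n = 4 each). The signal was 1.20-fold higher in HN, a LN minus HN difference of -0.27 (standard error 0.25, 95% interval -0.83 to 0.29) with a limma adjusted p of 0.874 and an exact permutation p of 0.314. CD163 had the largest difference of the 8 genes, and 11.4% of all genes were lower in LN by more. It was also the 1 gene of the 8 whose direction held with each fetus left out in turn, from -0.45 without HN fetus L2 to -0.16 without HN fetus L3.

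MSR1, the class A scavenger receptor for modified lipoproteins, had 2 probes with different RefSeq transcripts. The brighter probe (NM_174113) gave 9.97, 9.96, 9.78 and 9.25 in LN fetuses L5, L6, L8 and L9 and 9.84, 9.28, 10.37 and 10.01 in HN fetuses L1, L2, L3 and L10. LN fetus L9 and HN fetus L2 were low and HN fetus L3 was high, and the other 5 lay close together whatever their group. The difference was -0.14 (standard error 0.25, 95% interval -0.71 to 0.44, limma adjusted p = 0.943, exact permutation p = 0.629). The other probe (NM_001113240) gave 9.51, 9.59, 9.05 and 8.93 in LN and 8.90, 8.56, 9.74 and 9.06 in HN, in the same order of fetuses. Here the difference had the opposite sign, 0.20 (standard error 0.26, limma adjusted p = 0.918, exact permutation p = 0.571). MSR1 was the 1 gene of 6 with 2 probes whose probes disagreed in sign.

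The gap between the MSR1 probes was then taken within each fetus, a comparison chosen after these values were seen. It was 0.46, 0.37, 0.73 and 0.32 in LN fetuses L5, L6, L8 and L9 and 0.94, 0.72, 0.63 and 0.95 in HN fetuses L1, L2, L3 and L10. The gap was smaller in 3 LN fetuses than in any HN fetus, while LN fetus L8 lay among the HN values. The means were 0.47 ± 0.18 and 0.81 ± 0.16, which differed by -0.34 with an exact permutation p of 0.0857, or 0.514 after Benjamini-Hochberg adjustment over the 6 genes with 2 probes. Among the other 5 such genes, the lowest exact permutation p for the gap was 0.314, for CSF1R.

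CD5L (NM_001102119), a secreted scavenger-receptor-family protein made by tissue macrophages, gave 16.40, 15.78, 15.58 and 15.42 in LN fetuses L5, L6, L8 and L9. It gave 16.11, 15.56, 16.05 and 15.83 in HN fetuses L1, L2, L3 and L10. The highest and the lowest of the 8 livers, L5 and L9, were both LN, and the HN values lay between them. The difference was -0.090 (standard error 0.22, 95% interval -0.60 to 0.42, limma adjusted p = 0.958, exact permutation p = 0.743). The dimmer CD5L probe differed by -0.22 (standard error 0.19), with the lowest limma adjusted p of the 14 probes, 0.867, and an exact permutation p of 0.343.

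CSF1R, the receptor for the macrophage growth factors CSF1 and IL34, belongs with the signalling and phagocytic receptors. Its brighter probe (NM_001075403) gave 13.15, 13.42, 12.80 and 12.44 in LN fetuses L5, L6, L8 and L9 and 13.29, 12.42, 13.11 and 13.18 in HN fetuses L1, L2, L3 and L10. LN fetus L9 and HN fetus L2 had nearly the same low value, and LN fetus L6 was highest. The difference was -0.049 (standard error 0.26, 95% interval -0.63 to 0.54, limma adjusted p = 0.982, exact permutation p = 0.886). The dimmer probe differed by -0.35 (standard error 0.33, limma adjusted p = 0.881, exact permutation p = 0.429), and by -0.021 without LN fetus L9, whose value on it was 5.46 against 6.30 to 7.14 in the other 7 livers.

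VSIG4, the complement receptor of the immunoglobulin family, is a marker of resident macrophages (NM_001046529). It gave 9.08, 8.85, 8.62 and 7.97 in LN fetuses L5, L6, L8 and L9 and 8.70, 8.16, 9.15 and 8.73 in HN fetuses L1, L2, L3 and L10. LN fetus L9 was lowest and HN fetus L3 highest, with LN fetus L5 just under it. The difference was -0.055 (standard error 0.28, 95% interval -0.68 to 0.57, limma adjusted p = 0.982, exact permutation p = 0.83), and the dimmer probe gave -0.047.

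CD14 (NM_174008) binds bacterial endotoxin and hands it to TLR4 and LY96 (MD-2). Its log2 signal was 11.94, 12.54, 12.38 and 13.10 in LN fetuses L5, L6, L8 and L9 and 12.97, 11.81, 12.85 and 12.49 in HN fetuses L1, L2, L3 and L10. LN fetus L9, among the 2 lowest livers for 6 of the 8 genes, was highest for CD14, and LN fetus L5, among the 2 highest for 4, was next to lowest. The difference was -0.041 (standard error 0.31, 95% interval -0.74 to 0.66, limma adjusted p = 0.987, exact permutation p = 0.971), and the dimmer probe gave -0.051.

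CD68 and AIF1 are intracellular macrophage markers. CD68, a glycoprotein of late endosomes and lysosomes (NM_001045902), gave 11.30, 11.28, 11.14 and 10.67 in LN fetuses L5, L6, L8 and L9 and 11.14, 10.24, 11.60 and 11.23 in HN fetuses L1, L2, L3 and L10. HN held both the lowest and the highest liver, L2 and L3, so the LN values lay inside the HN range. The difference was 0.047 (standard error 0.28, 95% interval -0.60 to 0.69, limma adjusted p = 0.983, exact permutation p = 0.83), and the other probe gave 0.049.

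AIF1 (NM_173985), the actin-binding protein also called IBA1, gave 13.05, 13.05, 12.73 and 12.28 in LN fetuses L5, L6, L8 and L9. It gave 12.86, 12.33, 13.01 and 12.78 in HN fetuses L1, L2, L3 and L10. Again LN fetus L9 and HN fetus L2 were low and the other 6 were alike across groups. The difference was 0.028 (standard error 0.22, 95% interval -0.46 to 0.52, limma adjusted p = 0.987, exact permutation p = 0.943).

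**Figure D2:**
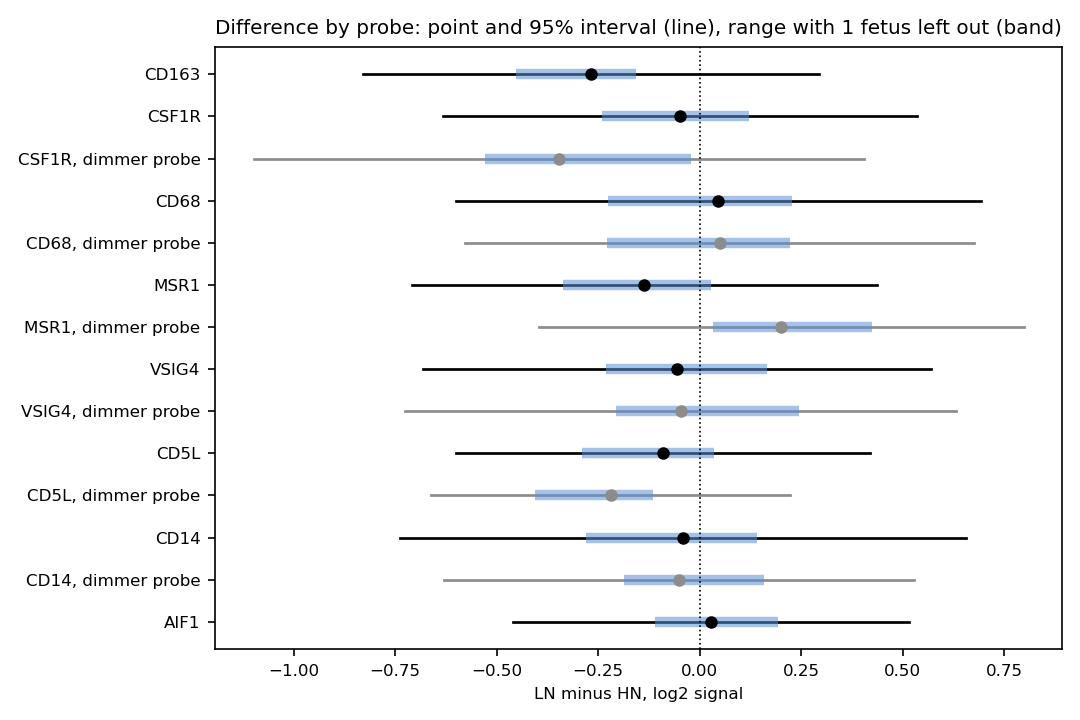
LN minus HN difference in log2 signal (horizontal axis) for each of the 14 probes, with the difference as a point, its limma 95% interval as a line and the range obtained with 1 fetus left out as a band; grey marks the dimmer probe of a gene. All 14 intervals include 0, and the bands of CD163 and of the dimmer CSF1R, MSR1 and CD5L probes lie on 1 side of it.

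Expressed as folds, the 95% intervals of the 8 genes allowed a LN signal from 1.38-fold (AIF1) to 1.77-fold (CD163) lower, and from 1.23-fold (CD163) to 1.62-fold (CD68) higher. On a simulated set of the same size, limma called 39.5% of probes that differed by 1 on the log2 scale and 87.5% of those that differed by 2. Those probes were drawn at random from all detected probes, with independent variation between probes. The shares are thus not those of the macrophage genes. The macrophage genes were more variable within groups than most genes: their median within-group SD was 0.40, beside 0.23 for all genes. CD14 and CD68 varied most, with 12.1% and 14.7% of all genes having a larger SD. From the lowest to the highest fetus the signal spanned 2.57-fold for CD68, 2.43-fold for CD14 and 2.27-fold for VSIG4, and 1.71-fold for AIF1, the narrowest.

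Much of that spread followed the fetus rather than the group. HN fetus L2 was among the 2 lowest livers for 8 of the 8 genes, and LN fetus L9 for 6 of 8. HN fetus L3 and LN fetus L5 were each among the 2 highest for 4 of 8. After each gene was standardised over the 8 fetuses, the mean over the 8 genes was 0.36, 0.54, -0.33 and -0.94 SD in LN fetuses L5, L6, L8 and L9 and 0.43, -1.36, 0.96 and 0.34 SD in HN fetuses L1, L2, L3 and L10. The lowest liver of each group was thus L9 in LN and L2 in HN, and LN fetus L8 lay between L9 and the other LN fetuses. Before normalization, the 75th percentile of log2 intensity was highest on the array of L5 (9.72), followed by L2 (9.62), and L9 was next to dimmest (9.05). By the median, L2 was brightest (6.71), followed by L5 (6.65), and L9 was again next to dimmest (6.09). The part of array brightness in the macrophage values was not tested.

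**Figure D3:**
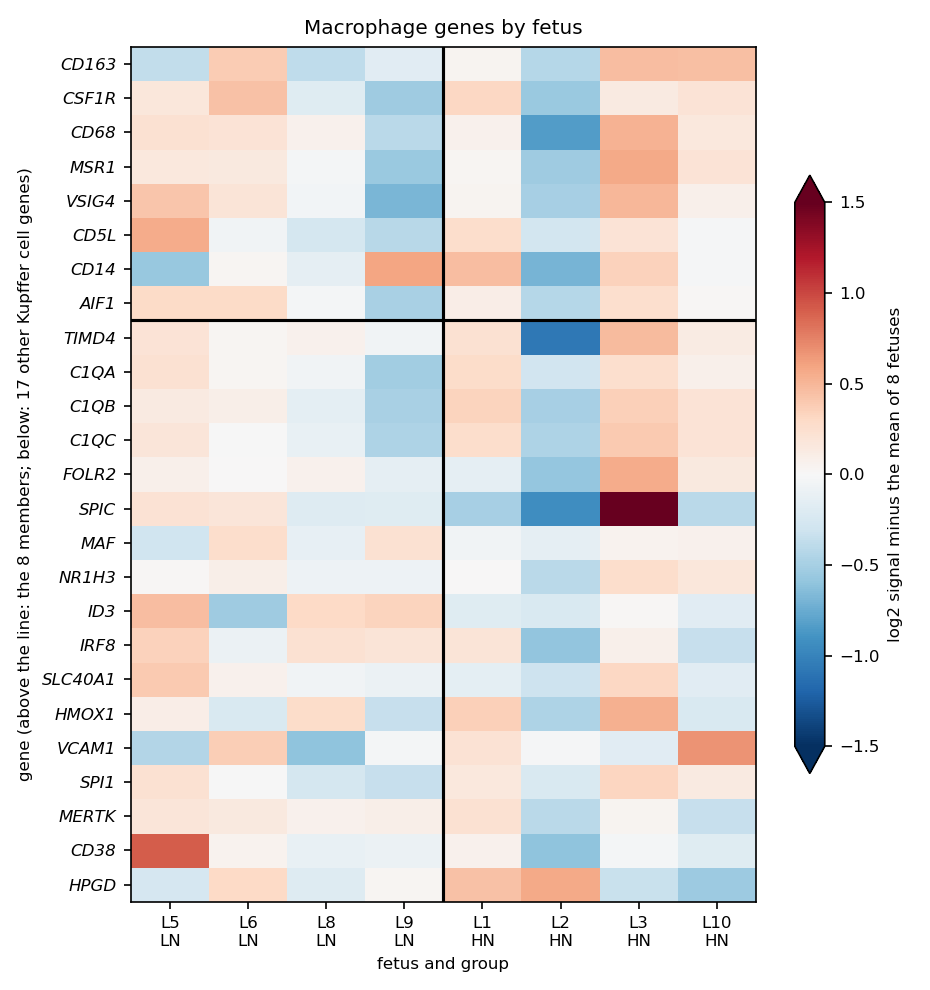
Log2 signal minus the mean of the 8 fetuses (colour, red higher and blue lower) for the 8 macrophage genes above the horizontal line and 17 other Kupffer cell genes below it, with fetuses in columns and a vertical line between LN and HN. Fetus L2 is blue for 8 of 8 macrophage genes, fetus L9 for most of them, and CD14 is red in L9.

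The direction of the comparison changed when some of the fetuses were left out. Without LN fetus L9, 2 of the 8 genes were lower in LN and their median difference was 0.078. Without HN fetus L3, 3 were lower, with a median of 0.047, and without HN fetus L1, 4 were lower, with a median of 0.015. Without HN fetus L2, all 8 were lower and the median was -0.24. Without LN fetus L6, all 8 were lower too, with a median of -0.11. Under each of these omissions, 0 of the 8 genes passed an unadjusted limma p of 0.05.

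Most macrophage genes varied together over the 8 livers, CD14 and CD163 least. Of 28 pairs, 25 had a positive Pearson's r, with a median of 0.67 and a range of -0.13 to 0.97. After Benjamini-Hochberg adjustment over the 28 pairs, 12 pairs passed an adjusted p of 0.05 by an exact permutation test of Pearson's r and 5 by that of Spearman's rho. Deviations from the group means gave a median r of 0.68, so the relation was present within groups. By Pearson's r the closest pair was VSIG4 with AIF1, at r = 0.97 and rho = 0.90 (exact permutation p = 0.00057 and 0.00456, adjusted 0.00718 and 0.0319). By Spearman's rho it was CD68 with VSIG4, at rho = 0.98 and r = 0.90 (adjusted exact permutation p = 0.0111 and 0.0198). MSR1 with VSIG4 gave r = 0.95 and rho = 0.93, and CD68 with MSR1 gave r = 0.94 and rho = 0.90 (adjusted exact permutation p of r = 0.00718 for each of these pairs).

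The 2 fetuses farthest from the median of the first gene of a pair, L2 and L9 for most pairs, were then left out, and the median r over 28 pairs was 0.42. The pairs of CD68, MSR1 and VSIG4 held, at 0.97 for CD68 with MSR1, 0.88 for CD68 with VSIG4 and 0.80 for MSR1 with VSIG4, and VSIG4 with AIF1 gave 0.83. CSF1R with CD68, MSR1 and VSIG4 had given r = 0.82, 0.82 and 0.83 and gave 0.10, 0.15 and 0.20 without L2 and L9. Leaving out the extreme fetuses of a gene narrows its range, which can by itself lower r. The choice also depends on which gene of a pair comes first. CD14 had the lowest values, with r between -0.13 and 0.51 against the other 7 genes, and CD163 had r between 0.18 and 0.66. For each of CD14 and CD163, 0 of 7 pairs passed the adjusted threshold. CD14 with CD5L was -0.13 over 8 fetuses and 0.90 without L5 and L9.

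**Figure D4:**
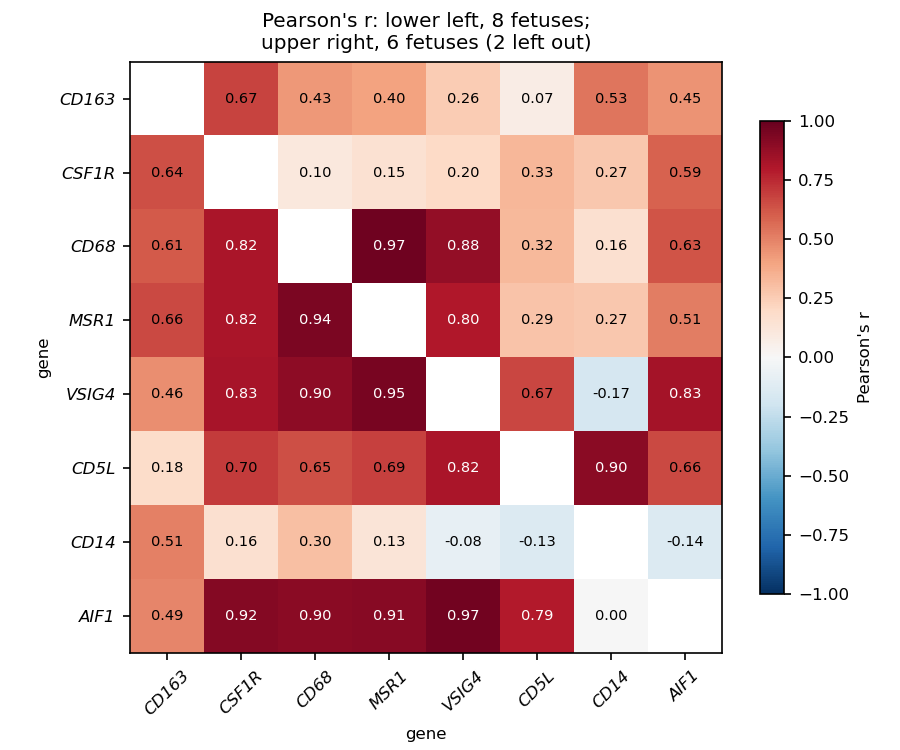
Pearson's r between the 8 macrophage genes (rows and columns), over 8 fetuses in the lower left and over 6 fetuses, without the 2 farthest from the median of the first gene of the pair, in the upper right. CD68, MSR1 and VSIG4 keep high values in both parts, whereas CSF1R with these 3 genes goes from 0.82 or 0.83 to between 0.10 and 0.20.

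Outside the 10 genes, the 5 transcripts of 10852 whose signal was most like the mean standardised signal of the macrophage genes over the 8 fetuses were NPC2, PTGS1, FAM167A, C1QB and CASP4. Their Pearson's r was 0.98, 0.97, 0.96, 0.96 and 0.95, given as a description since they were picked for it. NPC2 carries cholesterol out of lysosomes, PTGS1 is cyclooxygenase 1, C1QB is a chain of the first complement component and CASP4 is an inflammatory caspase. Between LN and HN they differed by -0.20 (C1QB, limma adjusted p = 0.897) to -0.026 (FAM167A, adjusted p = 0.993).

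An r above 0.7 with the macrophage mean was found for 2.64% of the 10852 genes. In the lists it was found for 7 of 17 other Kupffer cell genes, 12 of 21 phagocyte receptor and oxidase genes, 6 of 11 general white blood cell genes, 4 of 9 MHC class II genes and 9 of 28 lysosomal genes. It was found for 4 of 14 other scavenger and clearance receptors, 4 of 16 macrophage cytokine and inflammation genes, 2 of 8 genes of CSF1 receptor ligands and signalling and 2 of 15 endotoxin recognition partners of CD14. It was found for 0 of 16 hepatocyte, 0 of 16 stellate cell, 0 of 20 endothelial, 0 of 12 erythroid, 0 of 15 neutrophil, 0 of 7 cholangiocyte, 0 of 13 dividing cell and 0 of 15 haemoglobin and haem clearance genes. Lymphocyte markers had 2 of 16 and monocyte markers 2 of 7. All values share the same 8 arrays, and the lists share genes, such as CTSS and CORO1A.

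Of the other Kupffer cell and resident macrophage genes, 17 of 22 were matched and detected, 8 lower and 9 higher in LN, with a median difference of 0.0020 and 0 past an unadjusted limma p of 0.05. CD38, an NAD-consuming surface enzyme, and VCAM1, an adhesion molecule, had the largest differences, 0.37 (limma adjusted p = 0.830) and -0.35 (adjusted p = 0.836). The CD38 difference was 0.13 without LN fetus L5, and that of VCAM1 was -0.19 without HN fetus L10. Some genes were named for their role, with their values known. TIMD4, the phosphatidylserine receptor of long-lived resident macrophages, gave 12.44, 12.26, 12.29 and 12.18 in LN fetuses L5, L6, L8 and L9 and 12.46, 11.17, 12.71 and 12.36 in HN fetuses L1, L2, L3 and L10. HN fetus L2 was again lowest, by about 1 log2 unit, and the LN values lay inside the HN range. The complement chains C1QA, C1QB and C1QC differed by -0.16, -0.20 and -0.20 (standard errors 0.19, 0.23 and 0.22), with L9 and L2 the lowest livers for C1QA, C1QB and C1QC. Other genes of the same list did otherwise. IRF8, ID3 and MERTK were higher in LN by 0.34, 0.28 and 0.24, and HPGD was highest in HN fetus L2 (7.58), with r = -0.44 to the macrophage mean.

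Around the receptors themselves, 8 of 13 genes of CSF1 receptor ligands and signalling were detected, 5 lower and 3 higher, with 0 past an unadjusted p of 0.05. The ligands CSF1 and IL34 differed by 0.094 and 0.13 (standard errors 0.14 and 0.12). INPP5D, a lipid phosphatase that damps receptor signals, and TREM2, a lipid-sensing receptor, differed most, each by -0.21 (limma adjusted p = 0.830). Of the partners of CD14 in endotoxin recognition, 15 of 16 were detected, 10 lower and 5 higher, with 0 past an unadjusted p of 0.05. TLR4 and LY96 differed by 0.11 and 0.045. LBP, the plasma protein that brings endotoxin to CD14, had the largest difference, -0.73 (standard error 0.44, limma adjusted p = 0.813, exact permutation p = 0.229), and TLR2 differed by -0.27.

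The other clearance functions gave a similar count. Of 14 detected scavenger and clearance receptors, 7 were lower and 7 higher, and 1 passed an unadjusted p of 0.05. It was AGER, a receptor for glycated proteins and S100 proteins, which differed by -0.52 (standard error 0.16, limma adjusted p = 0.760) with no overlap between groups. Over all genes, 6.05% passed an unadjusted limma p of 0.05 and 4.14% had groups without overlap. For haemoglobin and haem clearance, the route that CD163 serves, 7 of 15 genes were lower and 8 higher, with 0 past an unadjusted p of 0.05. CP (ceruloplasmin) and HP (haptoglobin) had the largest differences, -0.94 and 0.76, with standard errors of 0.67 and 0.60. Of 28 lysosomal genes, 15 were lower and 13 higher, and GLA, a lysosomal galactosidase, was higher in LN by 0.24 without overlap (exact permutation p = 0.0286, the smallest that 4 fetuses against 4 allow, and limma adjusted p = 0.787).

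The lists of genes that other white blood cells also express are given next, with 0 genes past an adjusted limma p of 0.05 and 48.4% of all genes lower in LN. At an unadjusted limma p of 0.05, 6.05% of all genes passed. Of 21 phagocyte receptor and oxidase genes, 16 were lower and 5 higher, with a median of -0.13. FCGR2B, the inhibitory Fc receptor that liver sinusoidal endothelium also carries, differed by -0.58 (limma unadjusted p = 0.0253, adjusted p = 0.760). Of 11 general white blood cell genes, 10 were lower and 1 higher, with a median of -0.27, and IKZF1, a lymphoid transcription factor, differed by -0.66 (limma unadjusted p = 0.0383, adjusted p = 0.785). The IKZF1 probe was dim, with a log2 signal of 2.96 to 4.64, and was well above background on 7 of 8 arrays. Of 9 MHC class II genes, 7 were lower, with CD74, the invariant chain, at -0.49 and BOLA-DOA at -0.40 (limma adjusted p = 0.785 for each). Of 16 macrophage cytokine and inflammation genes, 9 were lower and 7 higher, and PTGS2, the inducible cyclooxygenase, was 1.73-fold higher in LN (limma adjusted p = 0.785, exact permutation p = 0.114). Monocyte markers were lower for 6 of 7 genes (S100A4 at -0.73), and lymphocyte markers for 14 of 16 (CD247 at -0.45, BLK at -0.64).

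**Figure D5:**
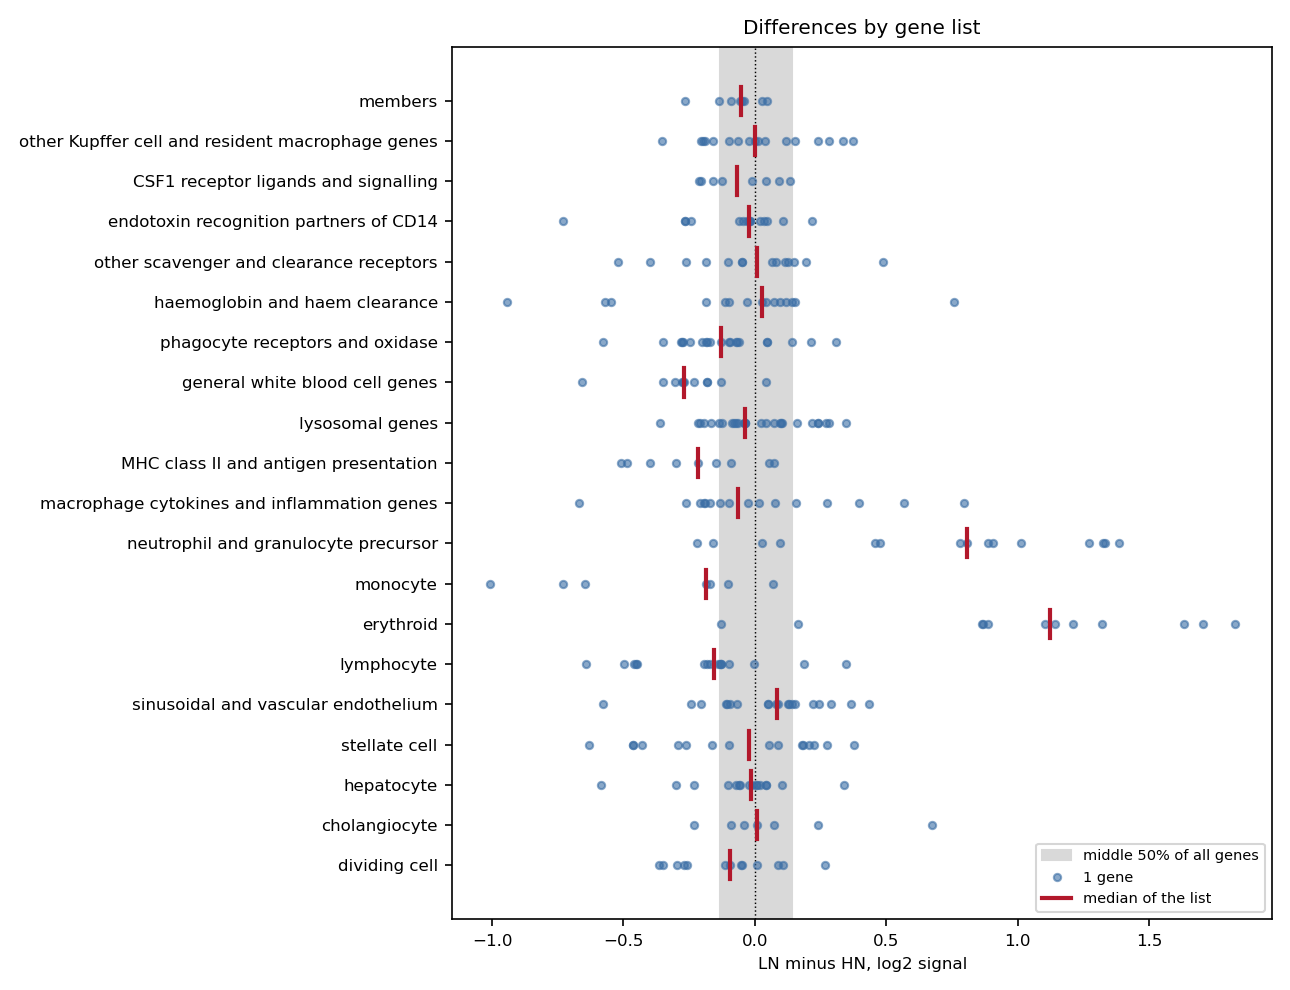
LN minus HN difference in log2 signal (horizontal axis) for each detected gene (points) of the macrophage genes, labelled members, and of the other lists (rows), with the median of each list as a red bar and the middle 50% of all genes as a grey band. The 8 macrophage genes lie near 0, with a median of -0.052, while the neutrophil and erythroid lists have medians of 0.81 and 1.12.

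Detected markers of blood-forming cells were mostly higher in LN. Of 15 detected neutrophil and granulocyte precursor genes, 13 were higher and 2 lower in LN, with a median of 0.81 and 4 past an unadjusted limma p of 0.05. Over all genes, 6.05% passed that threshold and 4.14% had groups without overlap. MPO (myeloperoxidase) and ELANE (neutrophil elastase), granule enzymes of early granulocytes, were higher without overlap, by 1.32 and 0.91 (limma adjusted p = 0.760 for each). The antimicrobial peptides CATHL2 and CATHL3 differed by 1.33 and 1.39 with groups that overlapped (exact permutation p = 0.143 and 0.0857). The mean log2 signal of this list was 8.28 to 9.39 in LN and 7.60 to 8.65 in HN, and it was highest in L9 among all livers and in L2 among HN livers, the pair with the lowest macrophage signal. Its genes had a median r of -0.36 with the macrophage mean, where stellate cell genes had -0.47 and a list mean also highest in L2 (11.54). LN fetus L6, with the highest macrophage mean in LN (0.54 SD), had the next highest neutrophil list mean of all livers (8.95). Of 19 matched erythroid genes, 12 were detected, and of these 11 were higher and 1 lower, with a median of 1.12. Their list mean was 10.49 in LN fetus L5 against 6.48 to 8.07 in the other 7 livers. Whether these cells have a part in the macrophage values was not tested.

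Of the cell types that make up the rest of the liver, endothelial genes were lower for 7 of 20, stellate cell genes for 8 of 16, hepatocyte genes for 9 of 16, cholangiocyte genes for 3 of 7 and dividing cell genes for 9 of 13. The medians of these lists lay between -0.095 and 0.085, beside -0.052 for the macrophage genes.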

How the data were processed

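The authors deposited scanner output in which each spot has a background-subtracted intensity from Agilent Feature Extraction 11.0.1.1, without normalization between arrays, and a table of log2 values of 31068 probes, well above background on all 8 arrays. The deposited log2 values lie within 0.0423 of quantile-normalized scanner values of the same probes, and 0 columns of the table were unmapped. The methods name quantile normalization and no test for the arrays.

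Here control spots and 16 probes marked as outliers were dropped, repeated spots were averaged, and log2 intensity was quantile normalized over 43637 probes. Detection required a signal well above background on 4 or more arrays (33439 probes). Accessions of 26740 probes were matched to 12603 genes by the RefSeq table of ARS-UCD2.0. The array was designed on UMD 3.1, so no coordinates are given. The groups were compared by lmFit and eBayes of limma 3.58.1 under R 4.3.3, 2-sided, with Benjamini-Hochberg adjustment over detected probes. The fit was tested on simulated data. Exact permutation tests used all divisions of the fetuses into 4 and 4, or all pairings for correlations, and were 2-sided. By the labels the replicates are separate fetuses.

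The members and gene lists were chosen with earlier results of these data known. The text names all members with probes, the genes of each list without overlap or with an unadjusted p of at most 0.05 (otherwise the 2 largest differences; FCGR2B counts under 2 lists), and the 5 genes most like the members. Lists of endothelial, hepatocyte and cholangiocyte genes had FCGR2B, ASGR2 (-0.30) and KRT7 (0.67) by this rule, and lists of stellate and dividing cell genes had TAGLN (-0.63), COL1A2 (-0.46), CCNB1 (-0.37) and PLK1 (-0.35). Values of some genes under this rule are not reported here; list counts and medians still hold them. Alternatives were 75th percentile scaling, normexp background correction (offset 50), the authors' log2 table, dim probes kept, a stricter detection on all 8 arrays, robust eBayes with a trend, slide position as a block, the mean over a gene's probes, and each fetus left out. The gap between probes of a gene was added after the data were seen.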

Additional observations from a re-analysis of the deposited data

Results flagged for a closer look

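Of 194 groups of 4 values examined, 4 held a fetus far from the other 3, fewer than the 1 in 20 that chance gives, and 0 of these were among the 28 groups of macrophage gene probes. CD38 was 8.90 in LN fetus L5 against 7.88 to 8.04 in the other LN fetuses. TLR2 was 16.93 in HN fetus L3 against 16.17 to 16.18 in the other HN fetuses. ID3, a transcription regulator of Kupffer cell identity, was 9.98 in LN fetus L6 against 10.82 to 10.97 in the other LN fetuses. The gap between the CD68 probes was 0.61 in HN fetus L10 against 0.70 to 0.71 in the other HN fetuses.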

How the results depend on the processing

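Under the 8 alternatives of scaling, background, table, filter, model, block and probe choice, 0 probes passed an adjusted limma p of 0.05 wherever it was counted, 0 macrophage genes passed an unadjusted p of 0.05, and 5 or 6 of the 8 were lower in LN. The median stayed between -0.066 (normexp) and -0.048 (mean over probes), and MSR1 alone changed sign among the 8 genes, to 0.032 with the mean over its probes. With scaling to the 75th percentile, the share of all genes lower in LN was 54.4% and the median was -0.023 over all genes and -0.049 over the 8. Leaving out each fetus gave 0 to 1 probes past the threshold (1 without LN fetus L6, adjusted p = 0.0487), 2 to 8 macrophage genes lower in LN, and medians from -0.24 to 0.078, with 0.015 without HN fetus L1. The difference ranged from -0.24 to 0.12 for CSF1R, -0.22 to 0.23 for CD68, -0.34 to 0.028 for MSR1, -0.23 to 0.17 for VSIG4, -0.29 to 0.034 for CD5L, -0.28 to 0.14 for CD14 and -0.11 to 0.19 for AIF1. Leaving out a fetus leaves 3 against 4 by construction, and the cause was not tested further. The labels share no replicate numbers between LN and HN, so no fit was paired by replicate, and position on the slide was the 1 block fitted. All member probes were well above background on all 8 arrays.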
